A study of Mus musculus with 2 samples.

Results

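The genes described here encode the proteins of the cytoplasmic ribosome, measured in donor T cells of the mouse colon during graft-versus-host disease. They were chosen by symbol: Rpl or Rps followed by a digit, Rplp or Rpsa, without the Rps6k kinases and without names marked as pseudogenes, and with at least 50 unique molecular identifiers (UMIs, each standing for 1 captured RNA molecule) in the kept cells. This gave 83 genes out of 31053, of which 49 were named for the large subunit (Rpl, Rplp) and 34 for the small subunit (Rps, Rpsa). Of 86 symbols that matched, Rpl39l with 32 UMIs and Rpl10l and Rpl3l with 0 UMIs stayed out. The symbols also take in Rps19bp1, which encodes a binding partner of a ribosomal protein and not a ribosomal protein, and paralogs such as Rps27l, Rpl22l1, Rpl36al and Rpl7l1. Fau, which encodes a ribosomal protein fused to a ubiquitin-like sequence, carries another name and is given beside the 83 genes.

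The recipients, Balb/c mice given a lethal irradiation dose, had been transplanted with 5000000 bone marrow cells of C57BL/6 (B6) donors and with splenocytes holding 800000 alpha beta T cells. On day 21 the colons of 5 mice were pooled after dissociation of the lamina propria, and donor T cells were sorted as H2-Kb and TCR beta positive, so that the cells of all classes below share donor, host, irradiation and time. Droplet sequencing of the pool (10x Genomics, with 5′ reagents) yielded 1 RNA library, and the same cDNA 1 library of T cell receptor (TCR) sequences; with 1 sample and cells that are not replicates, no test was made and no p-value is given. The titles name CD4 T cells, but CD8 cells were present in number.

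The cells were classed in 4 ways. The CD4 class had a Cd4 UMI and no Cd8a or Cd8b1 UMI (1861 cells), and the CD8 class had UMIs of Cd8a or Cd8b1 but none of Cd4 (2391 cells). After each cell was thinned to 2000 UMIs, Tcf7-positive cells had at least 1 UMI of Tcf7, the transcription factor of naive, memory and progenitor-like T cells. Cycling cells had at least 3 UMIs over 37 genes of replication and mitosis, and cells with 0 were called not cycling. Cytokine-positive cells had at least 1 UMI over 13 cytokine genes (Csf2, Ifng, Tnf, Il2, Il3, Il4, Il5, Il10, Il13, Il17a, Il17f, Il21 and Il22). None of the genes that set the classes is among the 83.

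Ribosomal proteins and ribosomal RNAs form the small subunit, which reads the mRNA, and the large subunit, which joins amino acids; the acidic proteins encoded by Rplp0, Rplp1 and Rplp2 make the stalk that recruits translation factors. The mRNAs of these proteins are short, abundant and long-lived, and most begin with a C followed by an unbroken run of pyrimidines, the terminal oligopyrimidine (TOP) tract, through which mTOR signalling and Larp1 control their translation. T cells that leave rest and begin to divide make many new ribosomes, and cells of the naive and memory type are known for a large ribosomal protein part of their mRNA. A share of UMIs measures mRNA relative to all other mRNA of the cell and not ribosomes or translation.

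The start site windows of 8 genes whose levels differed between cycling and other cells are shown because the reads of a 5′ library come from this end of the mRNA and because it holds the pyrimidine tract. Each window runs from 10 bases before to 20 bases after the gene start in the RefSeq promoter table (GRCm38.p6), 5′ to 3′ on the gene's strand, with the longest run of 5 or more pyrimidines in capitals; these starts need not be the ones used in these cells. The first 3 belong to a family: Rps27, its retrogene Rps27rt and its paralog Rps27l, which in human cells is known as a p53 target. They lie at chr3:90213629-90213658 (minus strand), chr9:114982720-114982749 (minus strand) and chr9:66946076-66946105 (plus strand).

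Rps27: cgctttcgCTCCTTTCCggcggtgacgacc

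Rps27rt: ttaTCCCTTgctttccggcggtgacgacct

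Rps27l: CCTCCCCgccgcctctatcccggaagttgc

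The windows of Rps27 and Rps27rt share an unbroken run of 19 bases, and those of Rps27 and Rps27l a run of 4. Over the whole transcripts, of 458 bases for Rps27, 374 for Rps27rt and 575 for Rps27l, Rps27 and Rps27rt share an unbroken run of 307 bases, and Rps27 and Rps27l a run of 11. Reads of 50 bases could therefore fit both Rps27 and Rps27rt, as 63.1% of the 50-base windows of the Rps27 transcript are also found in Rps27rt, but none fits both Rps27 and Rps27l. Next come 2 further genes lower in cycling cells, Rps24 of the small subunit (chr14:24490668-24490697, plus strand) and Rpl37a of the large subunit (chr1:72711250-72711279, plus strand).

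Rps24: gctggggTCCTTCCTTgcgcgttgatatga

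Rpl37a: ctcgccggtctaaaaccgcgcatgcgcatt

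Rps24 has a pyrimidine run beside the listed start and Rpl37a has none in this window. The Rpl37a window ends before the annotated start of the gene at chr1:72711290, so it cannot show whether its mRNA has such a tract. The last 3 were higher in cycling cells: Rps2 at the mRNA entry side of the small subunit (chr17:24720053-24720082, plus strand), Rpl28 of the large subunit (chr7:4792955-4792984, plus strand) and Rps26 at the mRNA exit side (chr10:128626487-128626516, minus strand).

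Rps2: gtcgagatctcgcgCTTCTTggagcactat

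Rpl28: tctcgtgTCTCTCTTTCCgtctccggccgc

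Rps26: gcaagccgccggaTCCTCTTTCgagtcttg

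Runs of pyrimidines stand in the windows of genes that were higher and of genes that were lower. Only 63 of the 83 genes (75.9%) had an entry in the promoter table, too few to give a share of promoters with a motif over the list, and that check is void.

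The 83 genes took 24.4% of all UMIs of the kept cells, about 1 in 4 molecules. Of the 83, 76 were found in at least 90% of cells, and the others included Rps19bp1 (12.2% of cells), Rpl7l1 (17.4%), Rps27rt (42.6%), Rps27l (46.1%), Rpl36al (47.7%) and Rpl13a (73.4%). Levels below are UMIs of a gene per 10000 UMIs of a class, which compare classes and not genes, since they are not per length. For 30 of the 83 transcripts more than 50% of 50-base windows are found in another annotated gene, with a median of 41.8% over the 83. The type of these other genes was not tabulated. The sources used here do not give how the authors' counting treated such reads, so a level may be understated or shared. Among the genes named most often here this overlap was 71.3% for Rps2, 63.1% for Rps27, 57.4% for Rpl13a, 37.8% for Rps26, 34.5% for Rpl28, 19.1% for Rps24 and 13.7% for Rps27l.

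Of 5348 barcodes 5333 were kept, with 2549 to 39138 UMIs and a median of 4800, and 5133 of them were also in the TCR table of 5990 barcodes. No doublet caller was run; 232 kept cells (4.35%) had at least 2 productive TRB chains, and 694 (13.01%) had UMIs of at least 3 of 16 macrophage genes. Mitochondrial genes took 2.21% of UMIs in CD4 and 2.23% in CD8 class cells. The 16 macrophage genes summed to 6.43 UMIs per 10000 in CD4 and 4.95 in CD8 class cells, whereas the sums for neutrophils, epithelial cells, fibroblasts and B cells were each at most 0.17. In 57 barcodes with at least 8 macrophage genes, with a median of 8719 UMIs, 3.51% were Tcf7-positive, 24.6% cytokine-positive and 26.3% cycling, and their ribosomal protein share was 21.2%. By comparison, 12.1% of CD4 and 6.19% of CD8 class cells were Tcf7-positive, 43.1% and 30.2% cytokine-positive, and 23.4% and 30.8% cycling. Those 57 barcodes came from the same T cell sort, so they are no clean measure of free RNA, and the shares of positive cells are used here only to form classes.

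Between the lineages the ribosomal protein share differed little. The 83 genes took 24.8% of UMIs in CD4 and 24.0% in CD8 class cells, a log2 ratio of 0.044, and the exact 95% interval, which like all intervals here covers counting error only, ran from 0.042 to 0.047. Single cells overlapped almost fully: the 5th to 95th percentile ran from 16.7% to 35.02% in CD4 cells, with a median of 24.3%, and from 17.3% to 32.0% in CD8 cells, with a median of 23.8%. The spread between cells (SD 5.50 percentage points in CD4 and 4.33 in CD8 cells) was far above the 0.61 and 0.60 points that counting alone would give, so a difference of classes of 0.75 points is small beside it. Large-subunit genes took 13.9% of UMIs in CD4 and 13.5% in CD8 class cells, and small-subunit genes 10.9% and 10.6%.

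**Figure D1:**
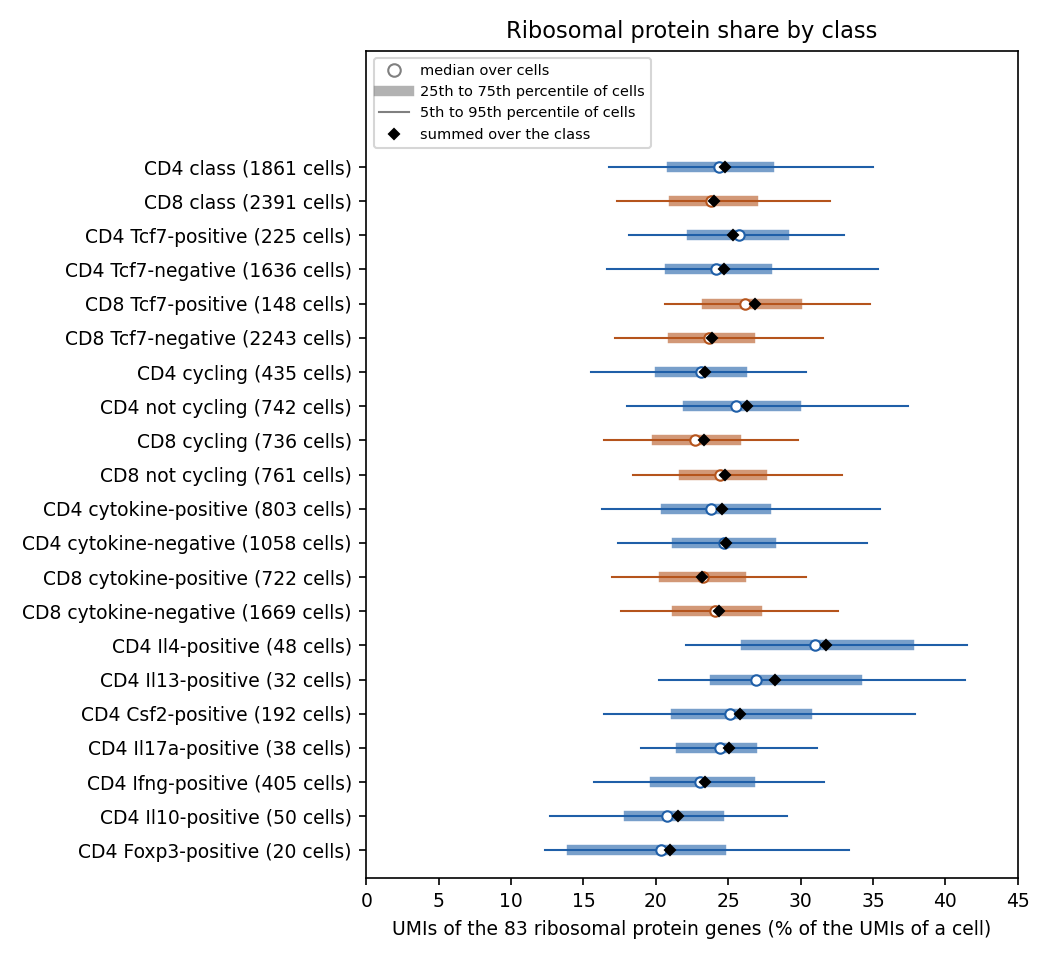
Percent of UMIs in the 83 ribosomal protein genes for each class (x axis), with the median over cells (circle), the 25th to 75th (bar) and 5th to 95th percentile of cells (line) and the value summed over the class (diamond), CD4 classes in blue and CD8 classes in orange. The class sums of most rows lie between 23.2% and 26.8%, and the Il4-positive CD4 cells stand to the right at 31.8%.

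Gene by gene, 54 of the 83 were higher in the CD4 class and 29 lower, with a median log2 ratio of 0.04. A single gene passed a 1.2-fold difference, the size used as the limit throughout: 0 of the 83 were higher and 1 was lower. Among 10047 other genes with at least 50 UMIs, 17.1% passed it higher and 21.4% lower in the CD4 class, and among the 1865 with at least 2000 UMIs, a depth closer to that of most ribosomal protein genes, 14.5% and 11.3%. The 1 gene was Rps27l, with 1.38 UMIs per 10000 in CD4 and 1.89 in CD8 class cells (log2 ratio -0.45, interval -0.54 to -0.36). Its family members leaned the other way: Rps27 had 28.3 UMIs per 10000 in CD4 and 25.6 in CD8 class cells (log2 ratio 0.15). Rps27l made up 4.50% of the UMIs of Rps27, Rps27rt and Rps27l in CD4 and 6.66% in CD8 class cells. Over cells of 3000 to 6000 UMIs its log2 ratio was -0.11 and 0 genes were past the limit.

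Within the 1.2-fold limit, CD4-leaning genes included Rpl29 (26.7 and 23.3 UMIs per 10000 in the CD4 and CD8 class), Rps19 (33.9 and 30.4), Rps9 (36.1 and 32.4), Rpl10 (26.4 and 23.7) and Rps21 (26.0 and 23.3), at log2 ratios of 0.15 to 0.20. Rps19 and Rpl10 are known from human inherited anaemia and T cell leukaemia. Leaning to the CD8 class were the paralog Rpl36al (1.10 and 1.26, log2 ratio -0.20) and Rpl7a (17.4 and 19.6, -0.17). The stalk genes stood at log2 ratios of 0.09 (Rplp0), 0.03 (Rplp1) and 0.09 (Rplp2). Rpsa, whose protein sits on the small subunit and is also described as a laminin receptor, had 71.2 UMIs per 10000 in CD4 and 64.7 in CD8 class cells (0.14). Around them, the ribosome biogenesis factors leaned to the CD8 class, with 1 of 48 measured genes past 1.2-fold higher and 15 lower in the CD4 class (median log2 ratio -0.20). By their median the mitochondrial ribosomal proteins did so too (1 higher and 19 lower of 78, median -0.18), against a median of -0.04 over other genes. Of other genes with at least 50 UMIs 17.1% were past the limit higher and 21.4% lower, so the 19 lower are close to that share. Tpt1, a translation-associated TOP mRNA, was at 67.3 UMIs per 10000 in CD4 and 53.6 in CD8 class cells (log2 ratio 0.33) and was the single gene of the list of TOP-encoded factors past the limit.

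Tcf7-positive cells had a higher ribosomal protein share, by more in the CD8 class than in the CD4 class. In CD8 cells the 83 genes took 26.8% of UMIs in 148 Tcf7-positive cells and 23.9% in 2243 Tcf7-negative cells (log2 ratio 0.17, interval 0.16 to 0.18), with medians over cells of 26.1% and 23.7%. In CD4 cells they took 25.3% in 225 Tcf7-positive cells and 24.7% in 1636 Tcf7-negative cells (log2 ratio 0.035, interval 0.029 to 0.040), with medians of 25.8% and 24.2%. That the size differs between the lineages was not tested, and with 1 cell per clonotype (27 Tcf7-positive and 271 Tcf7-negative cells) the CD4 ratio turned to -0.056. Tcf7-positive cells were shallower, with median UMIs of 4091 against 4967 in CD8 and 4234 against 4856.5 in CD4 cells, and had lower macrophage sums, 3.48 against 5.03 UMIs per 10000 in CD8 and 3.95 against 6.71 in CD4 cells. Of the macrophage genes measured, 0 passed the limit higher in either lineage and 10 of 12 in CD8 and 10 of 10 in CD4 cells were past it lower. Over CD8 cells of 3000 to 6000 UMIs alone the log2 ratio was 0.14, and over CD4 cells 0.05; the part of the macrophage RNA in the difference was not tested. Fewer Tcf7-positive than Tcf7-negative cells were cycling, 14.9% against 31.8% in CD8 and 18.7% against 24.0% in CD4 cells, and the part of this in the difference was not tested either.

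In CD8 cells 77 of the 83 genes lay higher in Tcf7-positive cells and 6 lower, with a median log2 ratio of 0.16, while the median of other genes was -0.08. Past 1.2-fold were 8 higher and 2 lower; of other genes with at least 50 UMIs 19.8% were past it higher and 33.7% lower, and of those with at least 2000 UMIs 8.34% and 23.6%. Most genes thus differed by a similar small amount and few passed the limit. Without thinning 3 did, and over cells of 3000 to 6000 UMIs 4. With 1 cell per clonotype (27 Tcf7-positive cells) 15 did, and with stricter positive cells (18 Tcf7-positive cells) 14. Of the genes past the limit higher, Rps27 had the largest ratio, with 35.1 UMIs per 10000 in Tcf7-positive and 25.1 in Tcf7-negative CD8 cells (log2 ratio 0.49, interval 0.43 to 0.55). Also past the limit higher were its retrogene Rps27rt (1.13 and 0.87, log2 ratio 0.37), Rpl12 of the stalk base (23.2 and 18.6, 0.32), Rps24 (66.3 and 54.2, 0.29), Rps21 (28.2 and 23.1, 0.29), Rps7 (26.5 and 22.1, 0.27) and Rpl30 (40.5 and 33.7, 0.26). Rps27l had 1.21 UMIs per 10000 in Tcf7-positive and 1.92 in Tcf7-negative CD8 cells (log2 ratio -0.67, interval -0.99 to -0.37). Rpl7l1, with 16 UMIs in the Tcf7-positive cells, had 0.21 and 0.34 (-0.67, interval -1.49 to 0.05). Near equality were Rps26 (-0.01), Rpl7a (0.01) and Rpl10 (0.02).

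In CD4 cells 57 genes lay higher and 26 lower, with a median log2 ratio of 0.03; 3 passed the limit higher and 1 lower, against 20.4% and 24.5% of other genes with at least 50 UMIs and 7.48% and 11.1% of those with at least 2000. Rps27 had 34.2 UMIs per 10000 in Tcf7-positive and 27.7 in Tcf7-negative CD4 cells (log2 ratio 0.30, interval 0.26 to 0.35) and Rps27rt 1.40 and 0.97 (0.52). The third gene, Rps19bp1, had 0.32 and 0.23, with 36 UMIs in the Tcf7-positive cells and an interval that spans equality (-0.05 to 1.02). Rps27l had 1.06 and 1.42 UMIs per 10000 (log2 ratio -0.42, interval -0.70 to -0.15), so in both lineages Rps27 was higher and Rps27l lower in the Tcf7-positive cells. Of the 3 genes past the limit higher in CD4 cells, Rps27 and Rps27rt were also among the 8 in CD8 cells, which is 66.7% of the CD4 list and 25% of the CD8 list. The overlap was not taken over other genes, of which 20.4% in CD4 and 19.8% in CD8 cells passed the limit higher. Within 3000 to 6000 UMIs Rps27l was at -0.21 in CD4 cells and turned to 0.13 in CD8 cells. In the same range Rps27 was at 0.19 in CD4 and 0.35 in CD8 cells.

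**Figure D2:**
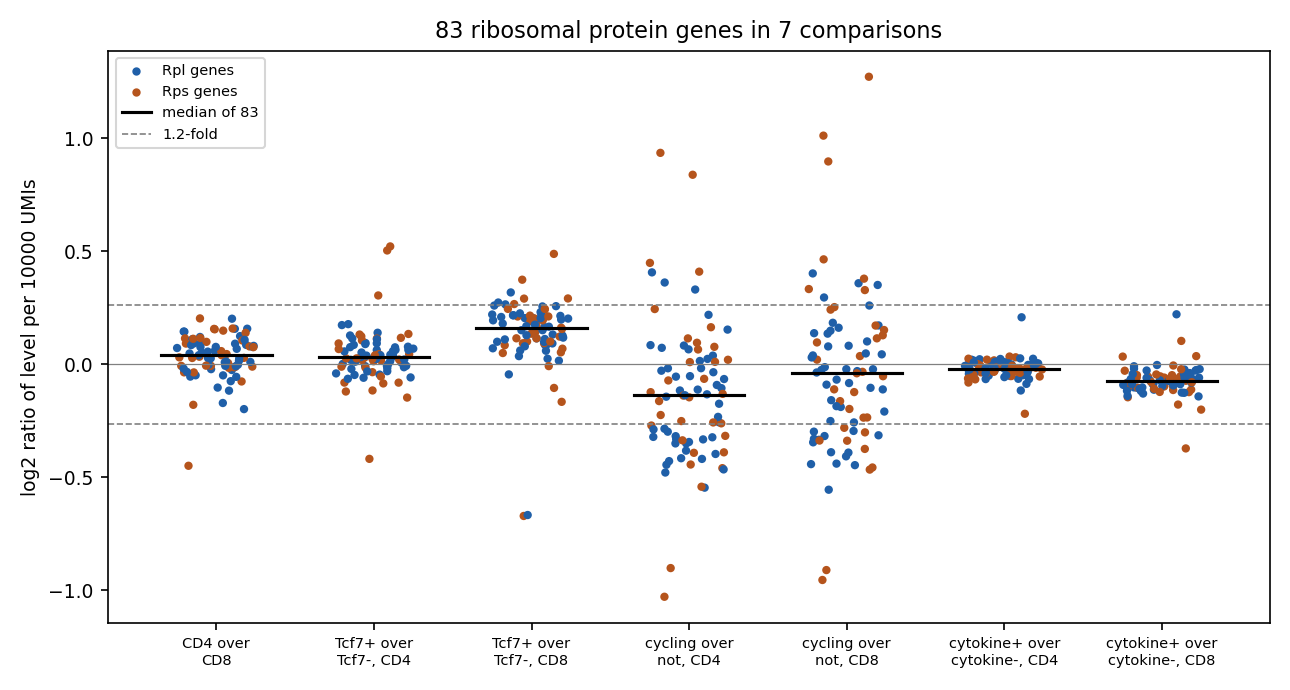
Log2 ratio of the level per 10000 UMIs (y axis) of each of the 83 genes in the 7 comparisons (x axis), Rpl genes in blue and Rps genes in orange, with the median of the 83 as a bar and the 1.2-fold limits as dashed lines. The points lie close together for lineage and cytokine, are shifted upward as a group for Tcf7 in CD8 cells (median 0.16), and spread between -1.03 and 1.27 for cycling.

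The other lists of translation genes given here were past the limit higher in Tcf7-positive cells less often than other genes. Of other genes with at least 50 UMIs, 19.8% in CD8 and 20.4% in CD4 cells were past it higher, and 33.7% and 24.5% lower. On the lower side biogenesis factors and mitochondrial ribosomal proteins were near these shares, and initiation factors were below them. Ribosome biogenesis factors had median log2 ratios of -0.12 in CD8 and -0.12 in CD4 cells, with 4 of 48 past 1.2-fold higher and 16 lower in CD8 and 6 of 47 higher and 12 lower in CD4 cells. Translation initiation factors were past the limit lower in 7 of 28 cases in CD8 and 2 of 28 in CD4 cells, with 0 higher in either, and mitochondrial ribosomal proteins had 5 higher and 27 lower of 78 in CD8 and 2 higher and 20 lower of 77 in CD4 cells. Fau, a ribosomal protein gene by its product, had 64.7 UMIs per 10000 in Tcf7-positive and 54.6 in Tcf7-negative CD8 cells (log2 ratio 0.25). Genes of resting and memory T cells, a list from which Tcf7 itself was left out, lay higher with Tcf7: 9 of 12 were past the limit in CD8 and 11 of 12 in CD4 cells, with 0 lower in either.

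Of the 7 comparisons, cycling spread the ribosomal protein genes most widely, while their total was somewhat lower. The SD over the 83 log2 ratios was 0.31 in CD4 and 0.35 in CD8 cells, against at most 0.16 in the other comparisons. Other genes with at least 2000 UMIs were also past 1.2-fold most often with cycling. Of these, 29.1% were higher and 32.3% lower in CD4 cells, and 31.5% and 30.2% in CD8 cells. In CD4 cells the 83 genes took 23.4% of UMIs in 435 cycling cells and 26.3% in 742 cells not cycling (log2 ratio -0.17, interval -0.17 to -0.16), with medians over cells of 23.2% and 25.5%. In CD8 cells they took 23.3% in 736 cycling cells and 24.8% in 761 cells not cycling (log2 ratio -0.089, interval -0.092 to -0.085), with medians of 22.7% and 24.5%. Cycling cells were deeper, with median UMIs of 8680 against 4463 in CD4 and 8547 against 4243 in CD8 cells, so that a lower share did not mean fewer ribosomal protein UMIs per cell. The nuclear RNA Malat1 stood at 17.4 UMIs per 10000 in cycling and 34.5 in other CD4 cells, and at 18.2 and 40.8 in CD8 cells. Macrophage genes summed to 5.45 and 9.12 UMIs per 10000 in cycling and other CD4 cells and to 4.56 and 4.47 in CD8 cells; their part, and that of Malat1, was not tested, but without barcodes with macrophage genes the log2 ratios were -0.19 in CD4 and -0.10 in CD8 cells.

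In CD4 cells 25 genes lay higher and 58 lower in cycling cells, with a median log2 ratio of -0.14; past 1.2-fold were 7 higher and 30 lower. Among other genes with at least 50 UMIs 32.2% were past it higher and 28.7% lower, and among those with at least 2000 UMIs 29.1% and 32.3%. In CD8 cells 34 lay higher and 49 lower (median -0.04), with 11 past the limit higher and 23 lower, against 32.8% and 29.2% of other genes with at least 50 UMIs and 31.5% and 30.2% of those with at least 2000. Read against these shares, the 7 and 11 of 83 past the limit higher are below the background, and the 30 and 23 past it lower are close to it.

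Among the higher genes was the paralog Rps27l. Rps27l had 1.94 UMIs per 10000 in cycling and 1.09 in other CD4 cells (0.84, interval 0.66 to 1.02), and 2.66 and 1.10 in CD8 cells (1.27, interval 1.11 to 1.43).

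Rps2 had 56.7 UMIs per 10000 in cycling and 42.7 in other CD4 cells (log2 ratio 0.41), and 55.9 and 40.5 in CD8 cells (0.46). Rpl28 had 36.6 and 28.5 in CD4 (0.36) and 36.2 and 27.4 in CD8 cells (0.40). Rpl31 had 7.26 and 5.77 in CD4 cells (0.33) and a log2 ratio of 0.36 in CD8 cells. Past the limit in CD8 cells but within it in CD4 cells was Rps26, with 42.1 UMIs per 10000 in cycling and 32.4 in other CD8 cells (0.38) and 39.6 and 33.5 in CD4 cells (0.24). Rps20, which lies in the head of the small subunit, had 49.4 and 39.4 in CD8 cells (0.33). The low-count genes Rps19bp1 and Rpl7l1 were past the limit higher in both lineages as well, Rps19bp1 with 0.27 and 0.20 UMIs per 10000 in CD4 and 0.27 and 0.14 in CD8 cells.

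At the bottom stood Rps27 with its retrogene. Rps27 had 18.9 UMIs per 10000 in cycling and 35.3 in other CD4 cells (log2 ratio -0.90, interval -0.94 to -0.86), and 17.8 and 33.5 in CD8 cells (-0.91, interval -0.95 to -0.88). Rps27rt had 0.64 and 1.30 in CD4 (-1.03, interval -1.25 to -0.81) and 0.621 and 1.204 in CD8 cells (-0.96). Rps27 and its paralog Rps27l thus lay on opposite sides in both lineages over cells of all depths, but over cells of 3000 to 6000 UMIs Rps27l was at -0.01 in CD4 cells (interval -0.50 to 0.45). Of the UMIs of the family over cells of all depths, Rps27l made up 9.07% in cycling and 2.89% in other CD4 cells, and 12.6% and 3.07% in CD8 cells. This share also moved with depth. Among cells not cycling, split at their median depth, it was 3.34% in deeper and 2.25% in shallower CD4 cells. In CD8 cells the deeper and shallower values were 3.997% and 1.83%. In barcodes with at least 8 macrophage genes it was 10.96%. The part of depth and of macrophage RNA in the share was not tested. A milder exchange was seen for Rpl22, which mice need for normal alpha beta T cell development, and its paralog Rpl22l1. Rpl22l1 made up 36.2% of the pair in cycling and 29.9% in other CD4 cells, and 38.3% and 33.6% in CD8 cells. By the same depth split of cells not cycling, it made up 29.8% in deeper and 30.3% in shallower CD4 cells. In CD8 cells these were 34.7% and 31.7%, and the part of depth was not tested. Over the alternative settings the log2 ratio of Rpl22l1 with cycling ran from 0.08 to 0.20 in CD4 and from -0.07 to 0.25 in CD8 cells.

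Rps24, mutated in some human Diamond-Blackfan anaemia, had 47.7 UMIs per 10000 in cycling and 69.4 in other CD4 cells (log2 ratio -0.54) and 46.4 and 64.1 in CD8 cells (-0.47). Rpl37a had 26.0 and 38.0 in CD4 (-0.55) and 25.2 and 34.2 in CD8 cells (-0.44). Rpl34 had 31.1 and 43.4 in CD4 cells (-0.48), Rpl30 29.6 and 40.9 (-0.47), and Rps15a 49.8 and 68.4 in CD8 cells (-0.46). Rpl13a, known in human cells as part of an interferon-dependent translational silencing complex, had 2.19 UMIs per 10000 in cycling and 3.21 in other CD8 cells (-0.56). The stalk genes stayed near equality, at log2 ratios of 0.04 in CD4 and 0.10 in CD8 cells for Rplp0, 0.01 and 0.03 for Rplp1, and -0.12 and -0.03 for Rplp2. Rpsa had 73.2 and 72.2 UMIs per 10000 in cycling and other CD4 cells (0.02) and 68.6 and 61.0 in CD8 cells (0.17).

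The order of the genes was much the same in both lineages. Over the 83 genes, which share the library, the log2 ratios of the CD4 and CD8 comparisons had a Pearson correlation of 0.97, and 74 genes lay on the same side of equality. All 7 genes past the limit higher in CD4 cells were among the 11 in CD8 cells (63.6% of those), Rps27l, Rps2, Rpl28, Rpl31, Rps19bp1 and Rpl7l1 among them. Of the 30 past it lower in CD4 cells, 23 (76.7%) were past it in CD8 cells too, and these were all of the CD8 list. The same figures were much lower for the Tcf7 comparison (0.36, with 57 on the same side) and lay between for the cytokine comparison (0.72, with 60). Neither the overlap nor the correlation was taken over other genes, so these figures do not show whether the agreement is particular to ribosomal protein genes. With cycling, 32.2% of other genes with at least 50 UMIs in CD4 and 32.8% in CD8 cells passed the limit higher. On the lower side these shares were 28.7% and 29.2%.

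**Figure D3:**
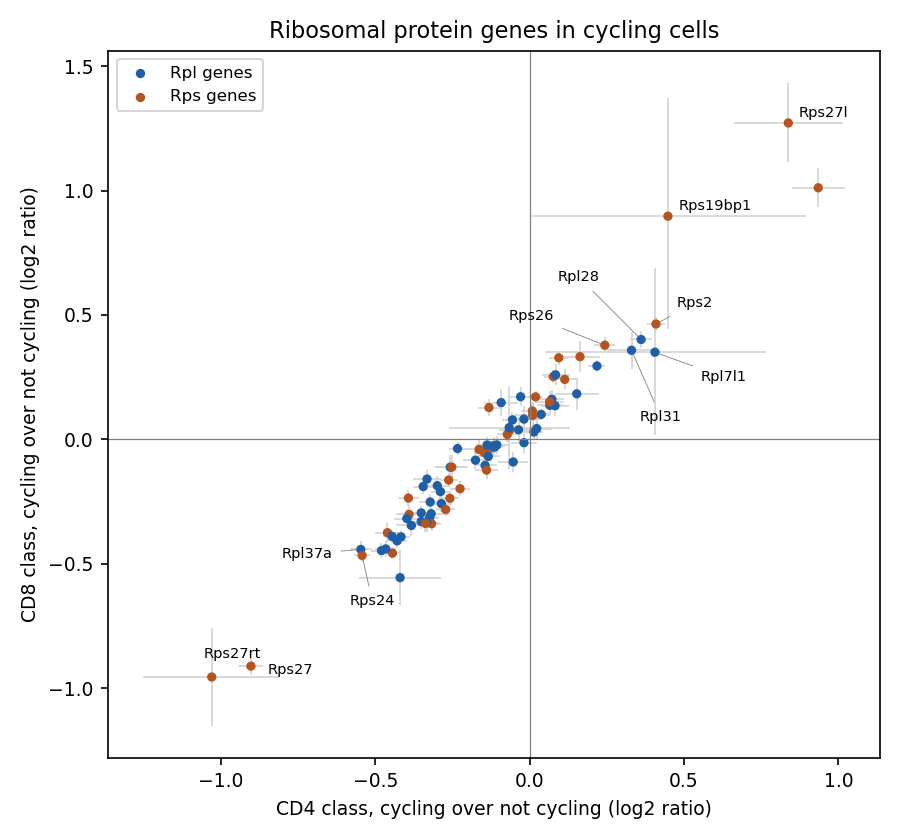
Log2 ratio of cycling over not cycling cells for each of the 83 genes, in the CD4 class (x axis) and the CD8 class (y axis), Rpl genes in blue and Rps genes in orange. The points follow the diagonal, from Rps27 and Rps27rt near -0.9 to -1.03 at the lower left to Rps27l at 0.84 and 1.27 at the upper right.

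Cells with 1 or 2 cycling UMIs, 684 in the CD4 and 894 in the CD8 class, belonged to neither class of this comparison, and 156 CD4 and 207 CD8 cells lay just inside the limit with 3 to 5. Levels were also taken by grade, at 0, 1 to 2, 3 to 5, 6 to 10 and at least 11 cycling UMIs. In CD4 cells Rps27 had 35.3, 33.1, 24.0, 19.95 and 16.6 UMIs per 10000 over these grades, and in CD8 cells 33.5, 31.6, 23.2, 17.0 and 16.3. Rps27l had 1.09, 0.97, 1.45, 2.33 and 2.04 in CD4 and 1.10, 1.30, 1.97, 3.06 and 2.74 in CD8 cells. Rps27 was lower at each further grade, whereas Rps27l reached its highest level at 6 to 10 cycling UMIs and lay slightly lower above that. The summed share was 26.3%, 24.8%, 24.2%, 24.7% and 22.8% in CD4 and 24.8%, 24.5%, 23.9%, 24.3% and 22.7% in CD8 cells, with its largest steps at the last grade and, in CD4 cells, between the first and the next.

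**Figure D4:**
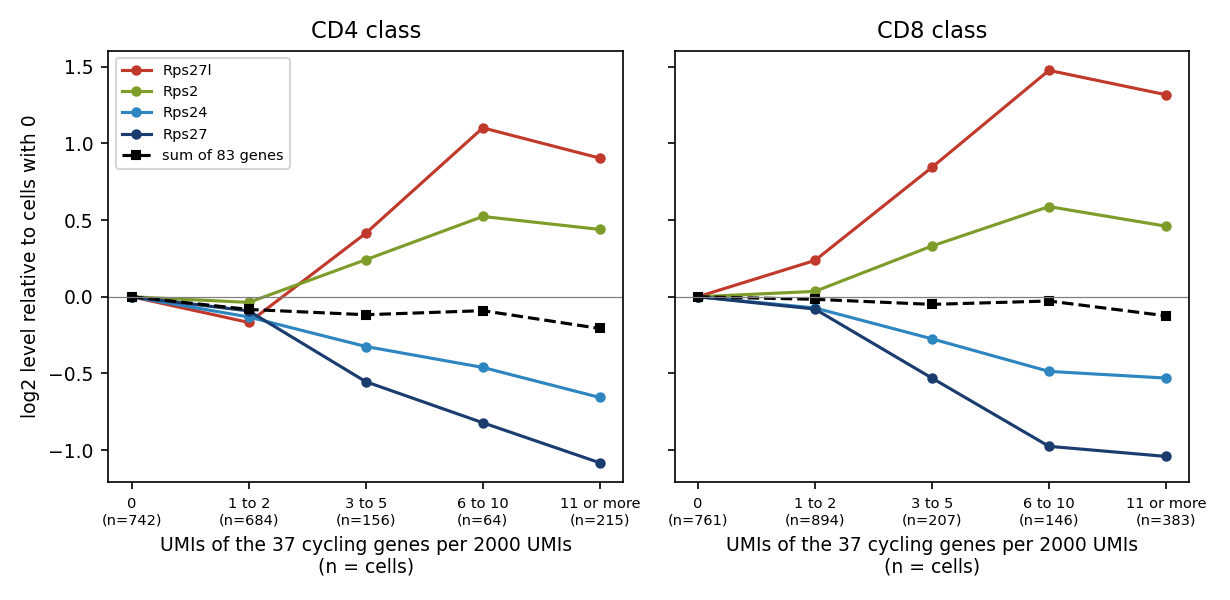
Log2 level of 4 genes and of the sum of the 83 genes (y axis), relative to cells with 0 cycling UMIs, over 5 grades of cycling UMIs per 2000 UMIs (x axis, with the number of cells), in the CD4 (left) and CD8 class (right). Rps27 and Rps24 are lower at each further grade, Rps27l and Rps2 lie highest at 6 to 10, and the sum, at 22.8% in CD4 and 22.7% in CD8 cells in the last grade, changes far less.

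The depth of cycling cells moved with the result. Within cells of 3000 to 6000 UMIs the share was 23.1% in 107 cycling and 26.2% in 498 other CD4 cells, and 22.4% in 177 cycling and 24.8% in 534 other CD8 cells, so the difference in the total was as large or larger. Of the genes past the limit lower, 30 of 30 in CD4 and 23 of 23 in CD8 cells kept their side, and 16 and 19 were still past it. Fewer of the higher genes held: of 6 measured in CD4 cells, 2 (Rpl31 among them) were still past the limit and 2 (Rps27l and Rpl7l1) lay on the other side, and of 10 in CD8 cells, 4 (with Rps26, Rps27l and Rpl7l1 among them) were still past it. Rps27 was at a log2 ratio of -0.44 in CD4 and -0.65 in CD8 cells, and Rps24 at -0.27 and -0.32. Rps27l was at -0.01 in CD4 cells (interval -0.50 to 0.45) and 0.45 in CD8 cells (0.10 to 0.79), and Rps2 was at 0.06 and 0.08.

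**Figure D5:**
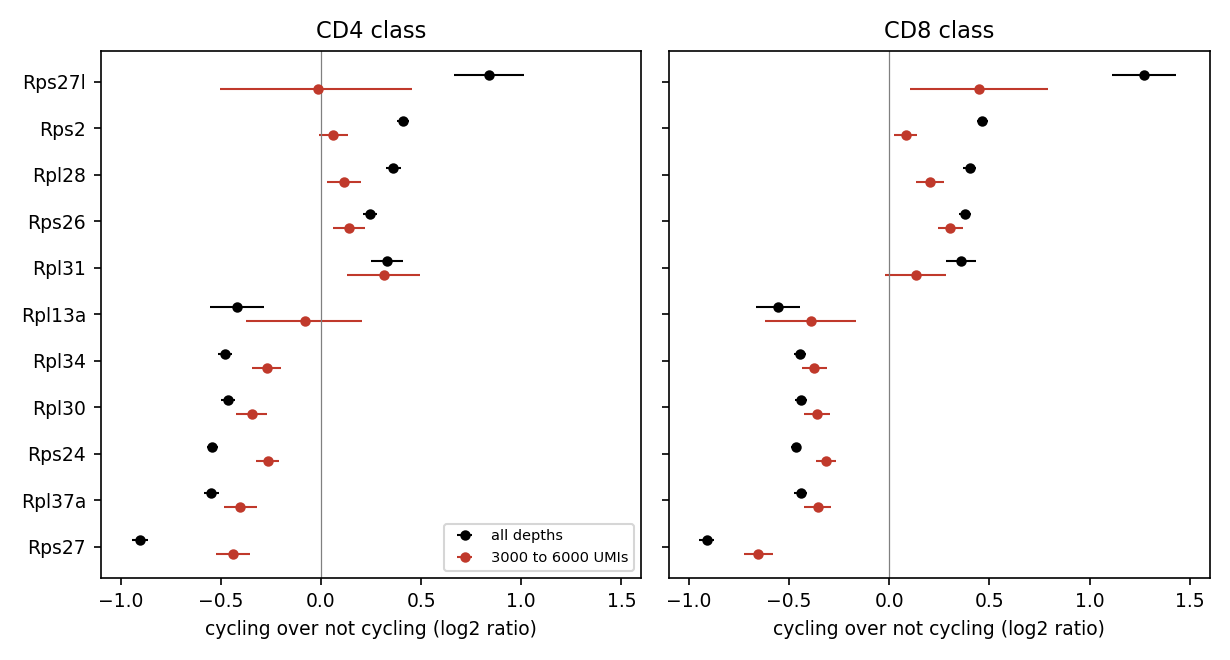
Log2 ratio of cycling over not cycling cells (x axis) with 95% counting intervals for 11 genes (y axis), over cells of all depths (black) and cells of 3000 to 6000 UMIs (red), in the CD4 (left) and CD8 class (right). The lower genes keep their side, and Rps2 comes close to 0.

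Among cells that were not cycling, deeper and shallower cells showed a related but smaller order. The 742 CD4 and 761 CD8 cells that were not cycling were split at their median depth, into 371 deeper and 371 shallower CD4 cells and 380 deeper and 381 shallower CD8 cells. These cells differed in more than depth: Tcf7-positive were 9.70% of deeper and 17.5% of shallower CD4 cells and 5.26% and 11.3% of CD8 cells, at least 2 TRB chains were found in 19 and 0 CD4 and in 25 and 4 CD8 cells, and macrophage genes summed to 11.99 and 4.03 UMIs per 10000 in CD4 and 4.91 and 3.71 in CD8 cells; their part was not tested. The share was 26.6% in deeper and 25.8% in shallower CD4 cells, and 24.6% and 25.02% in CD8 cells. Past 1.2-fold were 6 genes higher and 2 lower in deeper CD4 cells and 5 higher and 2 lower in deeper CD8 cells, against 17.5% and 22.9% of other genes with at least 50 UMIs in CD4 and 18.8% and 20.5% in CD8 cells. Rps27 had 32.2 UMIs per 10000 in deeper and 40.7 in shallower CD4 cells (log2 ratio -0.34) and 30.1 and 39.2 in CD8 cells (-0.38). Of the genes past the limit higher in cycling cells, 6 of 7 in CD4 and 10 of 11 in CD8 cells lay on the same side here (median log2 ratio 0.25 in each), and of the lower ones 21 of 30 and 21 of 23 did (medians -0.05 and -0.12).

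Among cycling cells, those with UMIs of only mitosis genes had a lower share than those with UMIs of only replication genes: 21.5% in 46 CD4 and 21.5% in 55 CD8 mitosis cells, against 25.4% in 37 CD4 and 22.8% in 57 CD8 replication cells. Set against cells not cycling, 4 genes were past 1.2-fold higher and 48 lower in the mitosis cells of the CD4 class (31.8% and 27.9% of other genes with at least 50 UMIs), and 4 and 30 in those of the CD8 class (30.7% and 29% of other genes). For the replication cells the counts were 7 higher and 9 lower in the CD4 class (32.3% and 33.4% of other genes) and 5 and 24 in the CD8 class (31.7% and 29.1% of other genes). In the CD4 class macrophage genes summed to 11.97 UMIs per 10000 in mitosis and 4.62 in replication cells. At least 2 TRB chains were found in 5 CD4 mitosis cells and 1 CD4 replication cell. These are few cells, and neither the difference between mitosis and replication cells nor the part of macrophage RNA or doublets in it was tested.

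The genes that build ribosomes went the other way from most ribosomal proteins in cycling cells. Of 47 measured biogenesis factors, 32 were past 1.2-fold higher and 2 lower in CD4 cells (median log2 ratio 0.42), and 40 were higher and 0 lower in CD8 cells (0.54). Of other genes with at least 50 UMIs, 32.2% in CD4 and 32.8% in CD8 cells were past it higher, and 28.7% and 29.2% lower. Lyar, a nucleolar factor of ribosomal RNA production, had 0.76 UMIs per 10000 in cycling and 0.36 in other CD4 cells (1.06) and 0.91 and 0.36 in CD8 cells (1.35), and Dkc1, the pseudouridine synthase of small nucleolar particles, had 0.49 and 0.18 in CD8 cells (1.46). Mitochondrial ribosomal proteins lay higher too, with 56 of 76 past the limit higher and 2 lower in CD4 and 59 of 77 higher and 4 lower in CD8 cells. Initiation factors had 16 of 28 higher and 5 lower in CD4 and 19 higher and 4 lower in CD8 cells; Eif5a stood at a log2 ratio of 0.78 in CD4 and 0.93 in CD8 cells and Eif4a2 at -0.63 and -0.51.

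The translation factors with TOP mRNAs lay close to equality, with medians of -0.09 in CD4 and -0.10 in CD8 cells. Of 21, 5 were past the limit higher and 3 lower in CD4 cells, and 6 higher and 3 lower in CD8 cells. These counts are below the shares over other genes, 32.2% and 32.8% higher and 28.7% and 29.2% lower. Nap1l1, a histone chaperone, was at 1.41 and 1.33, and Eif3e, a subunit of an initiation complex, at -0.51 and -0.50. The ribosomal protein fusion Fau had 44.5 UMIs per 10000 in cycling and 66.8 in other CD4 cells (log2 ratio -0.58) and 43.8 and 66.4 in CD8 cells (-0.60). Genes of resting cells lay lower, 10 of 12 past the limit in CD4 and 11 of 12 in CD8 cells, with 0 and 1 higher, and Btg1, an inhibitor of proliferation, was at -1.28 and -1.44. Genes of the early stress response to tissue dissociation had medians of -0.77 in CD4 and -0.50 in CD8 cells.

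Cytokine-positive cells as a whole had nearly the same ribosomal protein share as cytokine-negative cells in the CD4 class and a slightly lower share in the CD8 class. It was 24.6% in 803 cytokine-positive and 24.9% in 1058 cytokine-negative CD4 cells (log2 ratio -0.016, interval -0.020 to -0.013, and 0.0098 with 1 cell per clonotype), and 23.2% in 722 and 24.4% in 1669 CD8 cells (-0.072, interval -0.075 to -0.069). Depth was close, at medians of 4744 and 4771 UMIs in CD4 and 4886.5 and 4918 in CD8 cells, and macrophage genes summed to 7.34 and 5.74 UMIs per 10000 in CD4 and 4.12 and 5.29 in CD8 cells. The stress genes lay higher in cytokine-positive cells, with medians of 0.44 in CD4 and 0.65 in CD8 cells and 11 and 12 of 15 past the limit; the part of either in the result was not tested.

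Of the 83 genes, 0 were past 1.2-fold in either direction in CD4 cells (11.6% of other genes with at least 50 UMIs were past it higher and 12.7% lower, and 7.06% and 1.69% of those with at least 2000), and 23 lay higher and 60 lower. In CD8 cells 79 of the 83 lay lower, with 0 past the limit higher and 1 lower, the low-count Rps19bp1 (12.7% and 10% of other genes with at least 50 UMIs, 6.66% and 0.696% of those with at least 2000). Within the limit, Rps2 had 44.0 UMIs per 10000 in cytokine-positive and 49.8 in cytokine-negative CD8 cells (log2 ratio -0.18). Rps27, at 26.0 and 25.4 (0.04), was among the 4 that lay higher.

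Cytokine-positive CD4 cells did not have a common share once they were taken by cytokine, a division made after the values above were seen. The 48 Il4-positive cells had the highest share, 31.8% (interval 31.6% to 32.0%, median over cells 31.0%), and the 32 Il13-positive cells 28.2%; Il4 and Il13 are the cytokines of type 2 helper cells. The 192 Csf2-positive cells were at 25.8%, the 38 Il17a-positive cells at 25.04%, the 25 Il22-positive cells at 24.5%, the 166 Tnf-positive cells at 23.6%, the 49 Il21-positive cells at 23.6% and the 405 Ifng-positive cells at 23.4%. The lowest were 50 Il10-positive cells at 21.5%, and 20 cells with a UMI of Foxp3, the factor of regulatory T cells, were at 20.9%. A cell can be in more than 1 of these classes. For scale, cytokine-negative CD4 cells were at 24.9%, and 263 cells with Gata3, the factor of type 2 cells, but without Il4 were at 25.9%.

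In Il4-positive CD4 cells the higher share was spread over most of the genes. Set against cytokine-negative CD4 cells, the log2 ratio of the sum was 0.35 (interval 0.34 to 0.36), 77 of the 83 genes lay higher, and 53 were past 1.2-fold higher and 3 lower, where 20.6% of other genes with at least 50 UMIs were past it higher and 47.9% lower. Rpl36a had 20.4 UMIs per 10000 in Il4-positive and 12.7 in cytokine-negative cells (0.68), Rps9 55.8 and 36.2 (0.62), and Rpl37a 48.2 and 32.4 (0.57). Of the 3 past the limit lower, Rpl7l1 and Rps19bp1 had 3 and 5 UMIs in Il4-positive cells. The biogenesis factors had a median log2 ratio of 0.00 there, with 10 of 46 past the limit higher and 18 lower. Il4-positive cells had a median of 5446.5 UMIs, against 4771 in cytokine-negative cells, and 14.6% of them were cycling, against 24.95% of cytokine-negative cells. Stress genes summed to 121.5 UMIs per 10000 in Il4-positive and 85.0 in cytokine-negative CD4 cells, and the part of cycling, depth and stress was not tested. They were not 1 clone: 21 with a clonotype fell into 17 clonotypes, the largest of 4 cells.

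Il13-positive cells had 15 genes past the limit higher and 0 lower against cytokine-negative cells (24.2% and 40.3% of other genes with at least 50 UMIs), and Csf2-positive cells, which make GM-CSF, had 2 higher and 0 lower (18% and 27.9% of other genes). The macrophage sum was 11.2 UMIs per 10000 in Csf2-positive cells and 4.17 in Il4-positive cells. Il10-positive CD4 cells had 2 genes past the limit higher and 26 lower (34.9% and 30.9% of other genes), and among them Rpl28 had 22.4 UMIs per 10000 in Il10-positive and 32.1 in cytokine-negative cells (log2 ratio -0.52). Their biogenesis factors lay higher, with 25 of 46 past the limit higher and 8 lower (median 0.37). In Ifng-positive CD4 cells 82 of the 83 genes lay lower, each by little, with 0 past the limit higher and 1 lower (13.8% and 14.8% of other genes), for a log2 ratio of the sum of -0.09. In CD8 cells the 579 Ifng-positive cells were at 23.2%, the 37 Il10-positive cells at 21.5%, the 127 Tnf-positive cells at 22.9% and the 31 Csf2-positive cells at 24.5%. Among the cytokines given here Il10 thus went with the lowest share in both lineages. The Il10-positive cells are few, and both lineages come from the same library. The part of depth, cycling, stress, doublets and macrophage RNA in their share was not tested.

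Cells were also compared by their TCR. A clonotype could be given to 2628 kept cells in 826 clonotypes, and the shares of the 10 largest clones, of 46 to 263 cells, ran from 19.8% to 25.5%. In CD4 cells the 83 genes took 23.7% of UMIs in 672 cells of clonotypes with at least 2 cells and 25.7% in 213 cells alone in their clonotype (log2 ratio -0.12), and 79 genes lay lower in expanded clonotypes, with 0 past 1.2-fold higher and 2 lower (23.3% and 14.8% of other genes with at least 50 UMIs, 8.64% and 5.56% of those with at least 2000). In CD8 cells they took 23.5% in 1028 and 24.7% in 242 cells (-0.07), and 77 lay lower, with 0 past the limit higher and 1 lower (17.1% and 15.4% of other genes with at least 50 UMIs, 5.26% and 3.81% of those with at least 2000). Of the expanded cells 30.2% were cycling in CD4 and 33.95% in CD8 cells, against 21.1% and 35.95% of cells alone in their clonotype, and 259 of the 1028 expanded CD8 cells belonged to 1 clone; the part of these in the difference was not tested. Expanded clonotypes thus had a slightly lower level of nearly every ribosomal protein gene, while almost none passed the limit.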

How the data were processed

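Single-cell RNA and TCR libraries were made from 1 pool of sorted colon T cells of 5 mice. The deposited RNA matrix holds raw UMI counts for each gene and barcode, with no normalization by the authors; Cell Ranger and the mm10 genome were used per the submitters' processing notes, but the sources used here give neither the version nor the treatment of reads with several positions. The deposited TCR contig table, whose read and UMI counts were not used as measurements, gave productive chains. Clonotypes were defined by the productive chains, in cells with TRA and exactly 1 TRB among them.

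Barcodes with at least 500 genes and at most 10% mitochondrial UMIs were kept (1 was left out for genes, 15 for mitochondrial UMIs, 15 in all). Classes were set on cells thinned to 2000 UMIs (seed 1), and levels were summed from all UMIs of a class. Shares carry Clopper-Pearson intervals and ratios exact conditional binomial intervals, at 95%, for counting error only. A ratio past 1.2-fold was counted; genes entered with at least 50 UMIs over both classes, and the genes that set a class were left out of its comparison. Simulated counts with known ratios were used to test the computation.

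Genes named are, in each comparison, the 6 with the highest lower and the 6 with the lowest upper interval bound, members with a paralog, the stalk genes and Rpsa, and in other lists the 2 highest and 2 lowest; others were named after their values were seen, and a few genes are left unreported here. The members and lists were chosen with earlier results of these data known. Overlap between transcripts was taken over 50-base windows of the GENCODE transcripts of GRCm38. Work was done in Python 3.11.15 with pandas 2.3.3, scipy 1.17.1, numpy 2.4.6 and, for plots, matplotlib 3.10.9.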

Additional observations from a re-analysis of the deposited data

Results flagged for a closer look

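Some genes lay on opposite sides of equality in the CD4 and CD8 class under the same comparison, with counting intervals that did not reach equality in either. The differences between the lineages were not tested, each ratio is within 1.2-fold, and the values are log2 ratios. Not every side held under the alternative settings. With Tcf7 in CD4 cells Rps6 ran from -0.10 to 0.04, Rps12 from -0.15 to 0.11 and Rps2 from -0.23 to -0.02. Rpl36a with cycling ran from -0.19 to -0.04 in CD4 and from -0.04 to 0.19 in CD8 cells. Rps24 with cytokines in CD4 cells ran from -0.12 to 0.06. With Tcf7, Rps6 was at -0.08 in CD4 and 0.10 in CD8 cells (difference -0.18), Rps12 at -0.08 and 0.19 (-0.28), Rpl41 at -0.05 and 0.06 (-0.11), Rpl14 at -0.06 and 0.11 (-0.17) and Rps2 at -0.12 and 0.07 (-0.19). With cycling, Rpl36a was at -0.09 in CD4 and 0.15 in CD8 cells (-0.24), Rps19 at -0.13 and 0.13 (-0.26), Rps27a at -0.07 and 0.04 (-0.10) and Rpl8 at -0.06 and 0.08 (-0.13). With cytokines, Rps24 was at 0.02 in CD4 and -0.03 in CD8 cells (0.053). In both the Tcf7 and the cycling comparison every such gene leaned lower in CD4 and higher in CD8 cells, the same order as the ratios of the summed shares.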

How the results depend on the processing

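Of the alternative values of summed shares (log2 ratios) and of counts of genes past 1.2-fold, 68 stayed close, 49 moved and 2 changed sign. The cause of a move was not tested. Keeping 1 cell per clonotype, which left few cells (27 Tcf7-positive and 271 Tcf7-negative CD4 cells), turned the share ratio to -0.056 for Tcf7 in CD4 and to 0.0098 for cytokines in CD4 cells; it was 0.063 for CD4 over CD8, 0.15 for Tcf7 in CD8, -0.21 and -0.048 for cycling in CD4 and CD8 and -0.083 for cytokines in CD8 cells, and the counts were 5 for CD4 over CD8, 5 for cytokines in CD4 and 4 in CD8 cells. Over cells of 3000 to 6000 UMIs the ratios were 0.053 for CD4 over CD8, 0.048 and 0.14 for Tcf7, -0.18 and -0.15 for cycling and -0.042 and -0.042 for cytokines in CD4 and CD8 cells, with counts of 0 for CD4 over CD8, 4 for Tcf7 in CD8 and 20 for cycling in CD4 cells. Without thinning they were 0.13 for Tcf7 in CD8, -0.18 and -0.081 for cycling and -0.046 and -0.060 for cytokines in CD4 and CD8 cells, with counts of 1 and 3 for Tcf7 in CD4 and CD8 and 1 for cytokines in CD4 cells. Without mitochondrial and the 20 most counted other genes in the denominator they were 0.033 for CD4 over CD8 and -0.11 for cycling in CD8 cells. As medians over cells they were 0.031 for CD4 over CD8, 0.093 and 0.14 for Tcf7, -0.14 and -0.11 for cycling and -0.051 and -0.049 for cytokines. With stricter positive cells they were 0.035 for CD4 over CD8, 0.12 and 0.14 for Tcf7, -0.15 and -0.098 for cycling and -0.034 and -0.078 for cytokines, with counts of 17 for Tcf7 in CD4 (15 cells) and 0 for cytokines in CD8 cells. Without barcodes with macrophage genes they were 0.054 for CD4 over CD8 and -0.19 and -0.098 for cycling, with a count of 2 for cytokines in CD4 cells. Without cells with 2 TRB chains, added after the data were seen, cytokines in CD8 cells were at -0.080.

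For single genes 1252 alternative values stayed close and 345 moved. Another 5 changed sign in genes past 1.2-fold: Rpl7l1 (0.041 for Tcf7 in CD8 cells with stricter positive cells, -0.12 for cycling in CD4 cells of 3000 to 6000 UMIs, -0.24 for cycling in CD8 cells with 1 cell per clonotype) and Rps27l in cells of 3000 to 6000 UMIs (0.13 for Tcf7 in CD8 and -0.013 for cycling in CD4 cells). Values within the limit that crossed equality, such as those of Rps6 and Rps12 above, are not among these 5. Over all alternatives Rps27 in cycling cells ran from -1.05 to -0.44 in CD4 and from -1.01 to -0.65 in CD8 cells. No paired analysis was possible because there is 1 RNA library. Few UMIs limit Rps19bp1, Rpl7l1 and the paralog Rps27rt.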
